A study of Capra hircus with 20 samples.

Results

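The 10 genes described here, RYR1, RYR3, ATP2A1, ATP2A2, CASQ1, CASQ2, CACNA1S, CACNB1, TRDN and STAC3, encode the machinery of excitation-contraction coupling and of calcium storage in muscle. They were taken by gene symbol from the mRNA expression table, where they stand as 51 of 43766 transcripts and 10 of 20587 genes, and the transcripts of a gene were summed. The cells came from 7-day-old male Jianzhou Daer goats (5 goats). Cells released by collagenase from the longissimus dorsi muscle are the intramuscular preadipocytes (IMPA), and cells from subcutaneous fat are the subcutaneous preadipocytes (SPA). At passage 3 both were given medium with 50 micromol per litre of oleic acid, and were harvested after 0 days (IMPA, SPA) or after 3 days as intramuscular adipocytes (IMA) and subcutaneous adipocytes (SA). Each of the 4 groups held 5 libraries. The values are FPKM, fragments scaled by the length of the transcript and the mapped reads of the library, so levels can be compared between genes per unit of length.

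In skeletal muscle fibres, depolarisation of the T-tubule membrane is sensed by the dihydropyridine receptor, a voltage-gated calcium channel whose pore subunit is CACNA1S. This channel is coupled mechanically to the ryanodine receptor RYR1 in the facing membrane of the sarcoplasmic reticulum, which then releases calcium, and the fibre contracts. Calsequestrins hold the stored calcium beside the release channel, triadin ties them to it, and the SERCA pumps return calcium to the store. ATP2A2 differs from the rest in that one of its products is the calcium pump of the endoplasmic reticulum in most cell types.

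The 10 genes were all higher in the intramuscular cells after induction than before it, and their summed level went from 127.8 to 158.2 FPKM in the IMPA libraries to between 417.3 and 461.4 FPKM in the IMA libraries. In the subcutaneous cells the sum was 30.9 to 36.8 FPKM before and 26.4 to 31.1 FPKM after induction. ATP2A2 made up 83.4% ± 2.5 (SD, n = 5) of that sum in SPA and 81.6% ± 1.9 (SD, n = 5) in SA, so little of the remaining machinery was measured there. By the ratio of mean FPKM, TRDN (8.02), CASQ1 (6.90) and CASQ2 (4.84) showed the steepest differences between IMA and IMPA. The smallest ratios were those of RYR1 (1.63), ATP2A2 (1.77) and CACNA1S (1.85).

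A few facts of the libraries bear on every result. FPKM sums per library over all tables were 527426 to 596669, and 15126 to 16961 genes of the mRNA table were above 0. No counts were used here, so the depth behind a value is unknown, and a gene listed at 0 may be one whose RNA was too rare to be sampled. In the study's alignment summary the mapped share of reads was higher in every IMPA library than in every IMA library, and in every SPA library than in every SA library. It was also higher in every IMPA library than in every SPA library, and in every IMA library than in every SA library. The share of mapped reads therefore cannot be told apart from the stage or from the cell type. The study's GC content of the reads was higher in every IMPA library than in any library of the other groups. The RNA came from whole cultures, in which more cells of a type cannot be told apart from more RNA per cell. No group held cells kept for 3 days without oleic acid. A change with induction therefore cannot be told apart from a change with time in culture.

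The labels were set against marker genes. The summed level of 14 skeletal muscle markers was 2671 to 3070 FPKM in IMPA and 9175 to 9810 FPKM in IMA, against 9.98 to 22.3 FPKM in SPA and 9.36 to 11.4 FPKM in SA. MYOG, a transcription factor of committed muscle cells, stood at 649.2 FPKM ± 66.9 (SD, n = 5) in IMPA and 735.7 FPKM ± 35.0 (SD, n = 5) in IMA, and was listed at 0 in 4 SPA and 4 SA libraries. The adipocyte hormone ADIPOQ had group means of 0.197, 0.214, 0.419 and 0.349 FPKM in IMPA, IMA, SPA and SA. LEP, PLIN1 and PLIN4 had group means of at most 0.276 FPKM, and LEP was listed at 0 in all 5 SA libraries. Other genes of the adipocyte list were measured at higher levels, and its 12 genes summed to 36.4 to 48.4 FPKM in IMPA, 46.4 to 72.0 FPKM in IMA, 18.9 to 26.1 FPKM in SPA and 17.1 to 31.8 FPKM in SA. CIDEA, a lipid droplet protein, made up most of the intramuscular sums, with means of 27.8 and 44.4 FPKM in IMPA and IMA and of 7.47 and 8.79 FPKM in SPA and SA. CEBPA, a transcription factor of fat cells, had group means of 9.23, 5.42, 5.05 and 3.91 FPKM in IMPA, IMA, SPA and SA. CIDEC had means of 0.333 and 0.318 FPKM in IMPA and IMA, below the 4.65 and 4.35 FPKM of SPA and SA. Of the 4 list genes tested (limma, adjusted p under 0.05), 3 were higher in IMPA than in SPA, and CIDEC was lower. The same counts held for IMA against SA. PPARG, LPL and DGAT2 had their highest group means in SA (1.03, 1.34 and 0.588 FPKM), and LIPE in SPA (0.384 FPKM). Thus ADIPOQ, LEP, PLIN1 and PLIN4 were near 0 in all 4 groups, while CIDEA and CEBPA were not. The preadipocyte and fibroblast list of 11 genes summed to 4506 to 7045 FPKM in IMPA, 5993 to 6728 FPKM in IMA, 11326 to 11722 FPKM in SPA and 10333 to 10643 FPKM in SA. Within it, DLK1 had group means between 0.0114 and 0.157 FPKM. The fibroblast genes were thus abundant in all 4 groups, and the muscle markers were high in both groups labelled intramuscular. Between IMPA and IMA, 12 of the 14 muscle markers rose and 1, MYOD1, fell, while 19.9% of all genes rose and 40.2% fell. Most muscle markers thus moved with the calcium-handling genes. Their part in the results was not tested.

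Gene values were compared as log2(FPKM + 1) with limma for 11432 genes that averaged 1 FPKM or more across the libraries, and p was adjusted for all of these genes (Benjamini-Hochberg). A gene was called higher or lower at an adjusted p under 0.05. Of the 10 members 9 passed the filter, and RYR3 did not. Among these 9, CACNA1S, RYR1 and TRDN had means under 1 FPKM over the 15 libraries that are not IMA, so they passed only with the IMA libraries. In IMA against IMPA 9 of the 9 tested members were up-regulated, against 19.9% of all genes called higher and 40.2% called lower (60.1% in either direction). The members were chosen with earlier results of these data known, so such counts beside all genes are given as a description. Their log2 differences ran from 0.50 to 2.54 with a median of 1.37, beside a median of -0.09 over all genes tested. The IMA libraries lay above the IMPA libraries without overlap for 10 of 10 members, and for 14.3% of all genes, while 29.2% lay below without overlap. All 9 were still called when any library was left out, and 10 of 10 members were called without the filter.

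**Figure D1:**
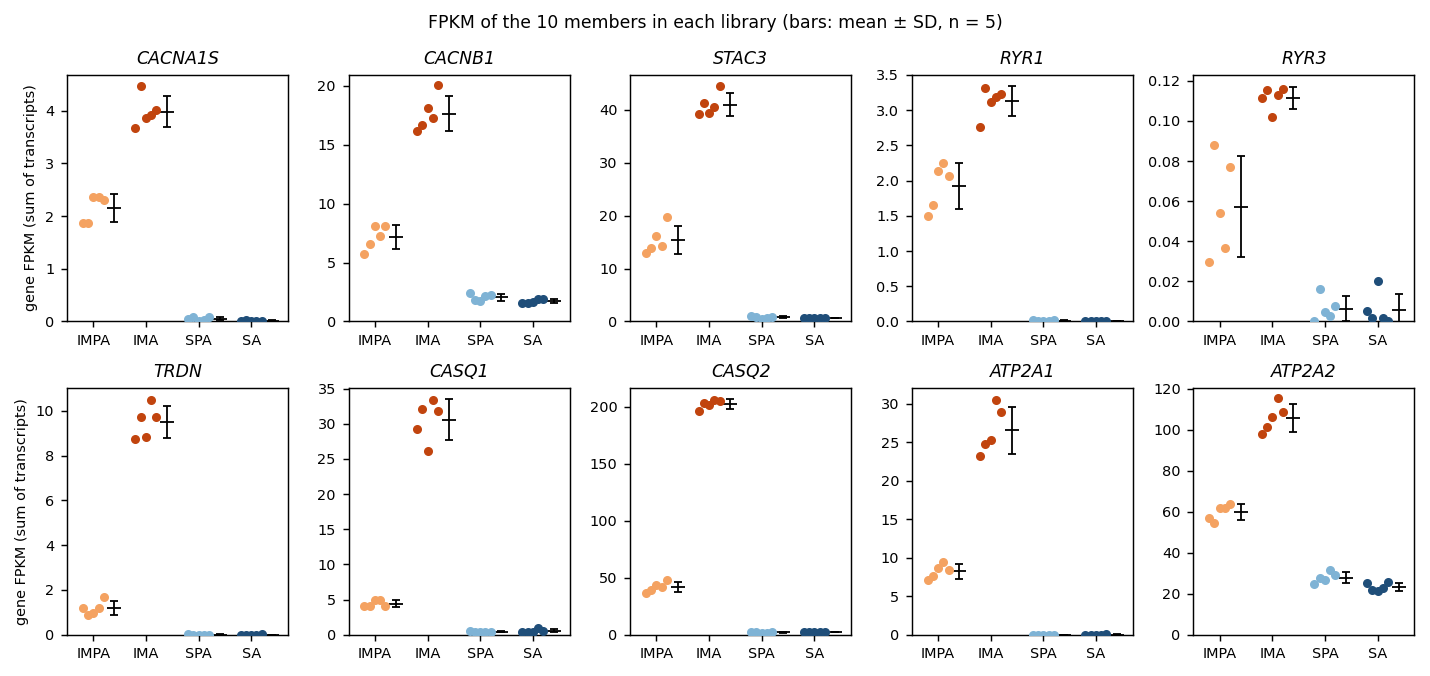
FPKM of each of the 10 genes (vertical axis, from 0, with its own scale in each panel) in the 20 libraries, by group, with 1 point per library and the mean ± SD of 5 libraries beside the points. In every panel the 5 IMA points lie above the 5 IMPA points, and ATP2A2 alone keeps a level above 20 FPKM in SPA and SA.

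The voltage sensor complex is formed by CACNA1S, by CACNB1, the auxiliary beta subunit, and by STAC3, an adaptor protein needed for the channel to reach the surface and to couple to RYR1. CACNA1S had 1.86, 1.86, 2.36, 2.36 and 2.31 FPKM in IMPA libraries 1 to 5. In IMA it had 3.67, 4.46, 3.86, 3.91 and 4.01 FPKM. The ranges did not meet, and the mean level was 1.85 times that of IMPA, with a log2 difference of 0.66 ± 0.07 (SE; limma, adjusted p = 6.29e-06).

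CACNB1 had 5.75, 6.55, 8.08, 7.29 and 8.14 FPKM in IMPA and 16.2, 16.7, 18.1, 17.3 and 20.04 FPKM in IMA. Every IMA value was higher than every IMPA value, and the log2 difference was 1.20 ± 0.09 (SE; limma, adjusted p = 4.27e-07). STAC3 had 13.0, 13.8, 16.1, 14.2 and 19.7 FPKM in IMPA and 39.3, 41.3, 39.4, 40.5 and 44.5 FPKM in IMA. Its mean rose 2.67 times, the log2 difference being 1.37 ± 0.09 (SE; limma, adjusted p = 2.08e-07), and STAC3 was the most abundant of the 3 genes of this complex in both intramuscular groups.

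The partners of CACNA1S thus rose more than the pore subunit itself. STAC3 stood at 7.15 ± 0.93 (SD, n = 5) times the FPKM of CACNA1S in IMPA and at 10.3 ± 0.7 (SD, n = 5) times in IMA. For CACNB1 the ratio to CACNA1S was 3.33 ± 0.22 (SD, n = 5) and 4.45 ± 0.47 (SD, n = 5). Neither ratio overlapped between the groups (two-sided exact permutation test, p = 0.00794, the smallest that 5 against 5 libraries allow; adjusted p = 0.00992 over 5 ratios). These ratios, and the shares given further on, were chosen after the levels were seen.

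The release channel came next. RYR1, which forms the release channel of skeletal muscle, had 1.50, 1.66, 2.13, 2.24 and 2.07 FPKM in IMPA. In IMA it had 2.76, 3.32, 3.11, 3.19 and 3.23 FPKM. The lowest IMA library was above the highest IMPA library, and the log2 difference of 0.50 ± 0.08 (SE; limma, adjusted p = 0.000147) was the smallest of the 9 tested members. The ratio of RYR1 to CACNA1S was 0.89 ± 0.05 (SD, n = 5) in IMPA and 0.79 ± 0.03 (SD, n = 5) in IMA (exact permutation test, p = 0.0317, also after adjustment over 5 ratios). Leaving out a library took this p to between 0.0159 and 0.0635, so that difference did not hold in each such test.

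RYR3, a ryanodine receptor of lower abundance in muscle that is prominent in developing fibres, was close to the floor of the table. It had 0.0297, 0.0879, 0.0543, 0.0369 and 0.0772 FPKM in IMPA and 0.112, 0.115, 0.102, 0.113 and 0.116 FPKM in IMA. The ranges did not overlap (exact permutation test, p = 0.00794), yet at such levels without known depth the size of the change is uncertain. RYR3 made up 2.94% ± 1.39 (SD, n = 5) of the summed RYR1 and RYR3 level in IMPA and 3.46% ± 0.26 (SD, n = 5) in IMA, which overlapped (exact permutation test, p = 0.476; adjusted p = 0.512 over 43 share comparisons). RYR2, the release channel of heart muscle, is no member and was under the filter at 2.56 FPKM ± 0.36 (SD, n = 5) in IMPA and 1.27 FPKM ± 0.06 (SD, n = 5) in IMA. It was thus lower after induction while RYR1 was higher, with 1.96 to 2.85 FPKM in IMPA libraries and 1.23 to 1.37 FPKM in IMA libraries.

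TRDN encodes triadin, the membrane protein that holds calsequestrin at the release channel. Its values were 1.21, 0.865, 0.973, 1.21 and 1.67 FPKM in IMPA. After induction they were 8.75, 9.71, 8.85, 10.5 and 9.72 FPKM. The IMA mean was 8.02 times the IMPA mean, the largest ratio of the 10 genes, and the log2 difference was 2.27 ± 0.09 (SE; limma, adjusted p = 1.83e-09). In proportion to RYR1, TRDN went from 0.63 ± 0.17 (SD, n = 5) in IMPA to 3.05 ± 0.18 (SD, n = 5) in IMA (exact permutation test, p = 0.00794; adjusted p = 0.00992 over 5 ratios). The RNA of TRDN therefore stood below that of RYR1 per unit of length before induction and above it afterwards. Protein was not measured.

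The calsequestrins bind calcium inside the store. CASQ1, the form typical of fast skeletal fibres, had 4.14, 4.14, 4.95, 4.89 and 4.03 FPKM in IMPA and 29.3, 32.1, 26.1, 33.4 and 31.9 FPKM in IMA. With a mean ratio of 6.90 and a log2 difference of 2.54 ± 0.07 (SE; limma, adjusted p = 1.40e-10), it had the largest log2 difference of the tested members.

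CASQ2, the calsequestrin of heart and of slow or developing skeletal muscle, had 36.5, 39.4, 43.3, 42.3 and 48.1 FPKM in IMPA. In IMA it had 196, 203, 202, 206 and 205 FPKM, a narrow range. Its log2 difference was 2.25 ± 0.06 (SE; limma, adjusted p = 7.65e-11). CASQ2 held 29.5% ± 0.8 (SD, n = 5) of the summed FPKM of the 10 genes in IMPA and 46.0% ± 1.0 (SD, n = 5) in IMA, where it was the most abundant member. In that stage ATP2A2 went from 42.1% ± 1.5 (SD, n = 5) to 24.0% ± 0.8 (SD, n = 5) of the sum. Neither share overlapped between IMPA and IMA (exact permutation test, p = 0.00794; adjusted p = 0.0137 over 43 share comparisons).

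Within the calsequestrin pair, CASQ1 was the minor form in every group. It made up 9.62% ± 1.10 (SD, n = 5) of the pair in IMPA and 13.1% ± 1.0 (SD, n = 5) in IMA, without overlap (exact permutation test, p = 0.00794; adjusted p = 0.0137). In SPA and SA, where both genes were low, the share was 16.5% ± 0.7 (SD, n = 5) and 19.4% ± 4.2 (SD, n = 5), and this difference did not pass after adjustment (exact permutation test, p = 0.0397; adjusted p = 0.0588).

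Of the pumps, ATP2A1 (SERCA1) is the pump of fast skeletal fibres, and ATP2A2 (SERCA2) that of heart, slow fibres and, in another isoform, of most other cells. ATP2A1 had 7.05, 7.61, 8.64, 9.48 and 8.34 FPKM in IMPA and 23.2, 24.8, 25.3, 30.5 and 28.9 FPKM in IMA. All IMA libraries were well above the highest IMPA library, and the log2 difference was 1.58 ± 0.09 (SE; limma, adjusted p = 3.63e-08).

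ATP2A2 had 56.8, 54.4, 61.8, 61.7 and 63.8 FPKM in IMPA and 97.9, 101, 106, 116 and 108 FPKM in IMA. This 1.77-fold difference of the means, 0.82 ± 0.05 on the log2 scale (SE; limma, adjusted p = 2.25e-07), was smaller than that of ATP2A1. As a share of the pair, ATP2A1 therefore went from 12.1% ± 0.9 (SD, n = 5) in IMPA to 20.01% ± 0.90 (SD, n = 5) in IMA (exact permutation test, p = 0.00794; adjusted p = 0.0137), while ATP2A2 remained the more abundant pump.

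**Figure D2:**
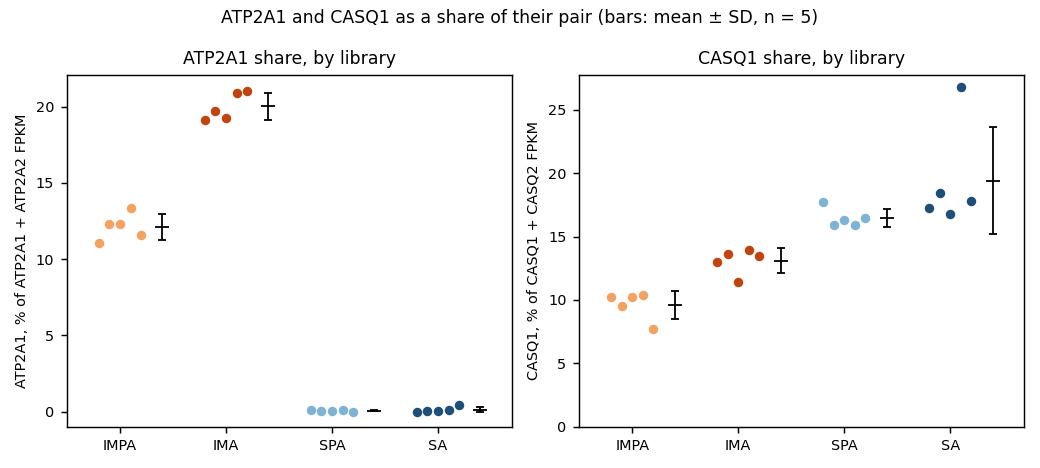
ATP2A1 as a percentage of the summed ATP2A1 and ATP2A2 FPKM (left) and CASQ1 as a percentage of the summed CASQ1 and CASQ2 FPKM (right), with 1 point per library and the mean ± SD of 5 libraries. ATP2A1 is at 12.1% in IMPA, 20.01% in IMA and at most 0.421% in each subcutaneous library, whereas the CASQ1 share is higher in SPA and SA than in IMPA and IMA, and SA4 stands apart at 26.8%.

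In the subcutaneous cells no such rise was found. SA against SPA had 0 of 9 tested members called higher and 1, ATP2A2, called lower, against 26.1% and 26.0% of all genes (52.1% in either direction). The SA and SPA libraries overlapped for 10 of 10 members, while 19.8% of all genes were higher and 19.0% lower without overlap. The median log2 difference of the members was -0.01, equal to that of all genes tested to 2 decimals. Only CACNB1, CASQ2 and ATP2A2 averaged 1 FPKM or more in the 10 subcutaneous libraries, so for the other 6 tested members the comparison rests on values near 0.

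ATP2A2 had 24.5, 27.6, 26.7, 31.6 and 29.0 FPKM in SPA and 25.0, 21.6, 21.4, 22.9 and 25.6 FPKM in SA. SPA1 was lower than SA1 and SA5, and the log2 difference was -0.25 ± 0.07 (SE; limma, adjusted p = 0.00922). CACNB1 had 1.76 to 2.45 FPKM in SPA and 1.55 to 1.94 FPKM in SA, with a log2 difference of -0.17 ± 0.07 (SE; limma, adjusted p = 0.0621) that did not pass. It did pass without SPA2, without SPA3 and without SA5, with adjusted p of 0.0385, 0.0323 and 0.0442. CASQ2 was at 2.14 FPKM ± 0.17 (SD, n = 5) in SPA and 2.23 FPKM ± 0.20 (SD, n = 5) in SA, and its log2 difference of 0.04 ± 0.06 (SE; limma, adjusted p = 0.581) was smaller than its error.

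The remaining members were low in both subcutaneous groups. STAC3 had 0.550 to 0.983 FPKM in SPA and 0.601 to 0.720 FPKM in SA, and CASQ1 had 0.374 to 0.502 FPKM and 0.432 to 0.937 FPKM. CACNA1S did not exceed 0.0914 FPKM and RYR1 did not exceed 0.0212 FPKM in any of these 10 libraries, and both were listed at 0 in SA1. TRDN was listed at 0 in 3 SPA and 4 SA libraries, and its highest value was 0.0189 FPKM. ATP2A1 was listed at 0 in SPA5 and SA1 and reached 0.108 FPKM in SA5.

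**Figure D3:**
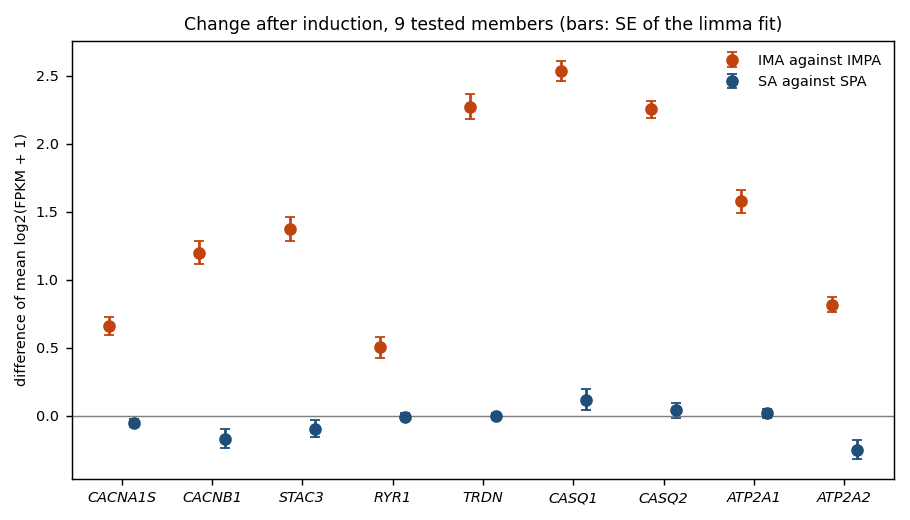
Difference of mean log2(FPKM + 1) for the 9 tested members in IMA against IMPA and in SA against SPA, with bars for the SE of the limma fit over 10 libraries. The IMA points lie between 0.50 and 2.54, and the SA points lie between -0.25 and 0.12.

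Whether the change with induction differed between the cell types was tested as an interaction in 1 fit of the 20 libraries. It was positive, which means a larger change in the intramuscular cells, for 9 of 9 tested members, while 20.7% of all genes were called in that direction and 34.6% in the other (55.3% in all). The median was 1.47 on the log2 scale, beside -0.08 over all genes. The interaction was 2.42 for CASQ1, 2.28 for TRDN and 2.21 for CASQ2, and it was 0.51 for RYR1, which had the largest adjusted p of the 9 (limma, adjusted p = 4.74e-05). The 6 members under 1 FPKM in the subcutaneous libraries, CACNA1S, STAC3, RYR1, TRDN, CASQ1 and ATP2A1, had little room to change there on this scale, so for them the interaction mostly restates the difference between IMA and IMPA. For the 3 others, which were above the filter in both cell types, the interaction was 1.37 for CACNB1, 2.21 for CASQ2 and 1.07 for ATP2A2.

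Between the cell types at the same stage, the intramuscular libraries were above the subcutaneous libraries for all 10 members in both stages. The background was large. In IMPA against SPA 75.1% of all genes were called, 42.3% higher and 32.9% lower, and 35.9% were higher and 27.5% lower without overlap. In IMA against SA 72.4% were called, 29.0% higher and 43.4% lower, and 24.0% were higher and 34.7% lower without overlap. Of the 9 tested members 6 reached the filter only through their intramuscular level and so had to differ, and these numbers are given as a description. These comparisons use the same libraries as the comparisons of stages.

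For the 3 members measured above the filter in both cell types, the sizes can be given. ATP2A2 in IMPA was 2.14 times its level in SPA, and in IMA 4.55 times its level in SA. These ratios use the sum of 2 transcript models, of which one carries a non-coding prefix and held most of the subcutaneous level. The coding model alone averaged 46.1 FPKM in IMPA, 97.4 FPKM in IMA, 4.35 FPKM in SPA and 2.05 FPKM in SA. It was listed at 0 in 2 SPA and 2 SA libraries. CACNB1 was 3.45 times higher in IMPA than in SPA and 10.2 times higher in IMA than in SA. CASQ2 was 19.6 times higher in IMPA than in SPA and 90.9 times higher in IMA than in SA. In all of these the order of the groups was IMA, IMPA and then the subcutaneous groups, and SPA and SA overlapped.

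The gene sums hide different transcript models, which are estimated by assembly-based quantification and whose division between similar models is less certain than the sum. ATP2A1 is listed with 2 models. XM_018040175.1 had 7.94 FPKM ± 1.297 (SD, n = 5) in IMPA and 5.78 FPKM ± 1.59 (SD, n = 5) in IMA, and 0 in all subcutaneous libraries. XM_018040177.1 had 1.05, 0, 0.0160, 0 and 0.3601 FPKM in IMPA and 19.7, 19.9, 17.6, 24.2 and 22.4 FPKM in IMA. The rise of ATP2A1 was thus carried by XM_018040177.1, which made up 3.87% ± 6.41 (SD, n = 5) of the gene in IMPA and 78.3% ± 5.5 (SD, n = 5) in IMA (exact permutation test, p = 0.00794; adjusted p = 0.0137).

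ATP2A2 is also listed with 2 models, of which XR_001296712.2 carries the prefix of a non-coding transcript although it stands in the mRNA table. XM_005691428.2, the coding model, had 46.1 FPKM ± 4.5 (SD, n = 5) in IMPA and 97.4 FPKM ± 6.4 (SD, n = 5) in IMA. XR_001296712.2 had 13.6 FPKM ± 1.2 (SD, n = 5) and 8.48 FPKM ± 0.46 (SD, n = 5) in these groups, and 23.5 FPKM ± 3.0 (SD, n = 5) and 21.2 FPKM ± 2.0 (SD, n = 5) in SPA and SA. The models moved in opposite directions in the intramuscular cells, and the coding model went from 77.2% ± 3.0 (SD, n = 5) to 92.0% ± 0.1 (SD, n = 5) of the gene (exact permutation test, p = 0.00794; adjusted p = 0.0137).

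In the subcutaneous cells most of the ATP2A2 level lay on XR_001296712.2. The coding model had 0, 1.95, 0, 11.1 and 8.64 FPKM in SPA and 1.72, 0, 1.55, 0 and 6.98 FPKM in SA. It was listed at 0 in 2 libraries of each group, and the groups overlapped widely. When ATP2A2 was represented by its most abundant model alone, the difference between SA and SPA did not pass (limma, adjusted p = 0.676), and neither did the interaction (log2 value 1.59; limma, adjusted p = 0.168). The ATP2A2 results of the subcutaneous cells therefore rest on the sum of the 2 models.

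STAC3 was divided unevenly between replicate libraries. Its model XM_018048045.1 had 18.4, 0.232, 16.5, 18.4 and 0.329 FPKM in IMA libraries 1 to 5, and XM_005680302.3 had 21.0, 41.1, 22.9, 22.1 and 44.2 FPKM. IMA2 and IMA5 had nearly all of STAC3 on a single model and the other libraries divided it, while the sum stayed between 39.3 and 44.5 FPKM. With the most abundant model alone the log2 difference between IMA and IMPA was 0.91 in place of 1.37 (limma, adjusted p = 0.00764). RYR1 showed the same kind of division, with XM_018062344.1 at 1.39, 0.0172, 2.08, 1.03 and 3.01 FPKM in IMA, and XM_018062346.1 at 1.38, 3.30, 1.03, 2.16 and 0.226 FPKM.

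TRDN, which is spliced into many forms, is listed with 33 models, of which 26 were above 0 in some library and 3 had a mean of at least 1 FPKM in a group. XM_018052971.1 was highest, with 6.74, 1.53, 3.61, 2.04 and 7.10 FPKM in IMA and a value above 0 in IMPA4 only among the IMPA libraries. XM_018052967.1 and XM_018052974.1 had IMA means of 1.11 and 1.11 FPKM. For CACNB1, XM_005693739.1 made up 65.6% ± 11.1 (SD, n = 5) of the gene in IMPA and 83.7% ± 10.8 (SD, n = 5) in IMA, which did not pass after adjustment (exact permutation test, p = 0.0476; adjusted p = 0.0661).

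**Figure D4:**
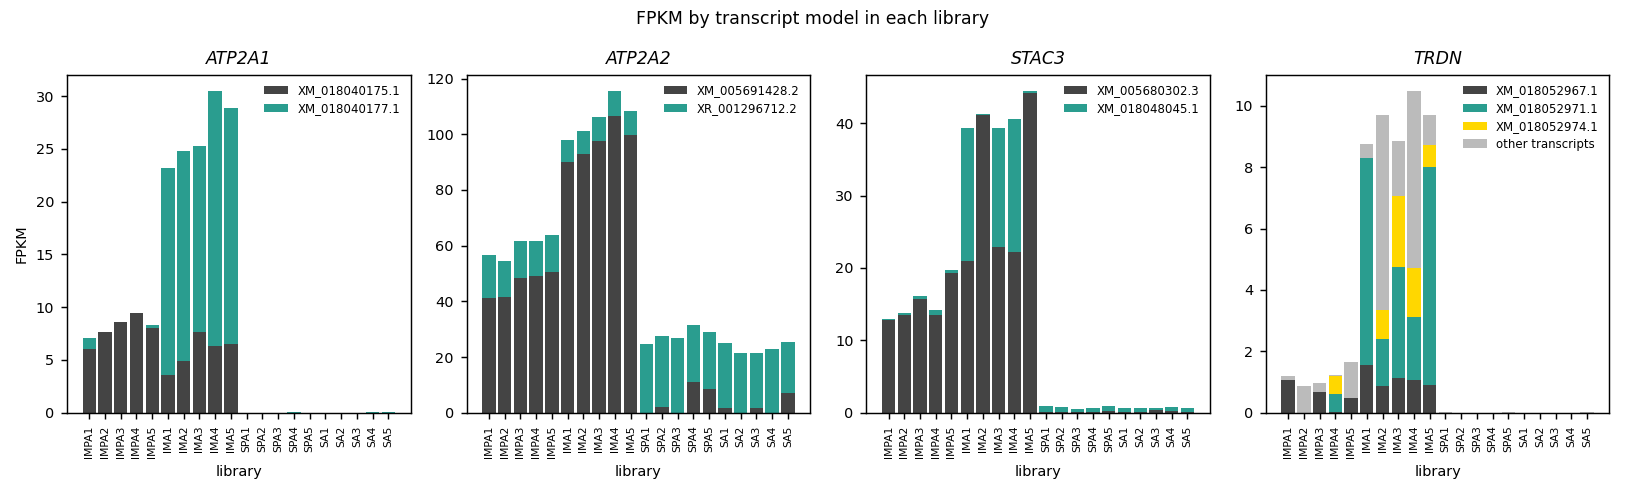
FPKM of the transcript models of ATP2A1, ATP2A2, STAC3 and TRDN stacked for each of the 20 libraries, the full bar being the gene sum. XM_018040177.1 makes up most of ATP2A1 in IMA, XR_001296712.2 makes up most of ATP2A2 in SPA and SA, and XM_018048045.1 of STAC3 is present in IMA1, IMA3 and IMA4 and near 0 in IMA2 and IMA5.

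The members were set beside 82 other genes of the pathway, listed by role, of which 78 were found and 58 tested. Like the members, these genes were chosen with earlier results of these data known, so their counts are a description. In IMA against IMPA 29 rose, 8 fell and 21 did not pass, with a median log2 difference of 0.13 beside -0.09 over all genes, of which 19.9% rose and 40.2% fell. In SA against SPA 12 rose, 15 fell and 31 did not pass, with a median of -0.01 for the list and for all genes, of which 26.1% rose and 26.0% fell. The subcutaneous counts of the list lie near that background. In the intramuscular cells more of the list rose than fell, whereas more of all genes fell than rose. The filter averages all 20 libraries, so a list gene low in IMPA could be tested through its IMA level. Without the filter 37 of 78 list genes rose and 8 fell. The counts by role below stand against the same shares of all genes, and each rests on few genes.

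The small membrane peptides that inhibit SERCA pumps rose in the intramuscular cells, and 2 of them, MRLN and SLN, had the largest log2 differences of the tested pathway genes. This ranking holds among genes that passed the filter, and SLN, under 1 FPKM in IMPA on average, passed it through other groups. MRLN (myoregulin) went from 1.34 FPKM ± 0.75 (SD, n = 5) in IMPA to 22.7 FPKM ± 2.7 (SD, n = 5) in IMA, a log2 difference of 3.40 ± 0.18 (SE; limma, adjusted p = 3.64e-08). SLN (sarcolipin) went from 0.364 FPKM ± 0.155 (SD, n = 5) to 4.78 FPKM ± 0.95 (SD, n = 5), and PLN (phospholamban) from 2.69 FPKM ± 0.31 (SD, n = 5) to 6.02 FPKM ± 0.62 (SD, n = 5), and both passed (limma, adjusted p = 3.66e-08 and 9.09e-07). These were the 3 of 6 tested genes of pumps and regulators that rose. The other tested ones, the plasma membrane pumps ATP2B1 and ATP2B4 and the Golgi pump ATP2C1, did not pass in this comparison, and ATP2A3, the SERCA pump of blood and epithelial cells, had group means of at most 0.0110 FPKM.

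Genes of triad and T-tubule structure rose in 9 of 11 tested cases and fell in 0. CAV3, the caveolin of muscle, went from 11.4 to 42.9 FPKM, KLHL31, a kelch protein of muscle, from 11.4 to 36.1 FPKM, and TMEM38A, the counter-ion channel TRIC-A of the sarcoplasmic reticulum, from 2.61 to 12.8 FPKM as group means. JPH2, a junctophilin that bridges the T-tubule and the store, rose from 21.4 FPKM ± 1.4 (SD, n = 5) to 39.4 FPKM ± 2.0 (SD, n = 5) in the intramuscular cells and fell from 13.6 FPKM ± 0.2 (SD, n = 5) to 10.7 FPKM ± 0.8 (SD, n = 5) in the subcutaneous cells (limma, adjusted p = 7.78e-08 and 9.31e-05).

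Among partners of the release channel, 6 of 11 rose and 1 fell. S100A1, a calcium sensor that binds ryanodine receptors, went from 2.62 FPKM ± 0.74 (SD, n = 5) in IMPA to 14.0 FPKM ± 2.3 (SD, n = 5) in IMA, and from 3.53 FPKM ± 0.45 (SD, n = 5) in SPA to 1.91 FPKM ± 0.46 (SD, n = 5) in SA. Both changes passed, in opposite directions (limma, adjusted p = 3.33e-07 and 0.000268), and so did the interaction (log2 value 2.70; limma, adjusted p = 1.04e-10). TMEM38A had the same pattern, with 4.56 FPKM ± 0.26 (SD, n = 5) in SPA and 2.48 FPKM ± 0.42 (SD, n = 5) in SA, and an interaction of 2.63 (limma, adjusted p = 2.45e-14).

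Among 8 tested proteins of the store 2 rose and 4 fell, not far from the 19.9% and 40.2% of all genes. HRC, the histidine-rich calcium-binding protein of the sarcoplasmic reticulum, and SRL (sarcalumenin) rose from 2.59 to 12.9 FPKM and from 22.0 to 58.0 FPKM. CALR (calreticulin), RCN1, RCN3 and SDF4, calcium-binding proteins of the general secretory pathway, fell in the intramuscular cells. CALR went from 388.5 to 305.8 FPKM and RCN1 from 275.9 to 217.1 FPKM as group means. In the subcutaneous cells RCN1, RCN2 and RCN3 rose, RCN1 from 198.7 to 305.5 FPKM, so that RCN1 had an interaction of -0.96 (limma, adjusted p = 1.41e-10).

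In the voltage sensor complex 3 of 5 tested genes rose and CACNA1C fell. CACNA1C, the pore subunit of the L-type channel of heart and smooth muscle, fell in both cell types, from 1.74 FPKM ± 0.15 (SD, n = 5) to 1.04 FPKM ± 0.16 (SD, n = 5) in the intramuscular cells and from 3.18 FPKM ± 0.41 (SD, n = 5) to 1.12 FPKM ± 0.30 (SD, n = 5) in the subcutaneous cells (limma, adjusted p = 0.000154 and 5.02e-06). It was thus lower after induction where CACNA1S was higher. CACNA2D1, the accessory alpha-2-delta subunit, rose in SA against SPA from 4.68 to 5.88 FPKM, and STAC, a relative of STAC3, fell there from 5.48 to 3.42 FPKM.

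The general routes of calcium release and entry gave 3 rises and 2 falls among 12 tested genes in the intramuscular cells. ITPR1, an inositol trisphosphate receptor, went from 8.70 to 7.73 FPKM in the intramuscular cells and from 5.90 to 6.96 FPKM in the subcutaneous cells (limma, adjusted p = 0.0473 and 0.00170). ITPR2 had 1.35 and 1.36 FPKM in IMPA and IMA and 2.39 and 2.16 FPKM in SPA and SA, and neither difference passed. ITPR3 was under the filter, with group means of 0.175 to 0.728 FPKM. STIM1, the store's calcium sensor, was at 1.06 FPKM in IMPA and 0.835 FPKM in IMA (limma, adjusted p = 0.0385), and ORAI3, a store-operated channel, fell from 13.5 to 7.53 FPKM in SA against SPA.

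Of the genes of membrane excitability and calcium buffering, 3 of 5 tested rose in the intramuscular cells and 3 fell in the subcutaneous cells. There, KCNJ2, an inward rectifier potassium channel, fell from 2.73 to 1.63 FPKM. Other genes that changed most in SA against SPA were DYSF (dysferlin, of membrane repair), CALM2 and TMEM38B, which rose, and SPEG, a kinase of the triad, which fell from 5.68 to 3.62 FPKM. DYSF rose there only from 0.196 to 0.585 FPKM.

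**Figure D5:**
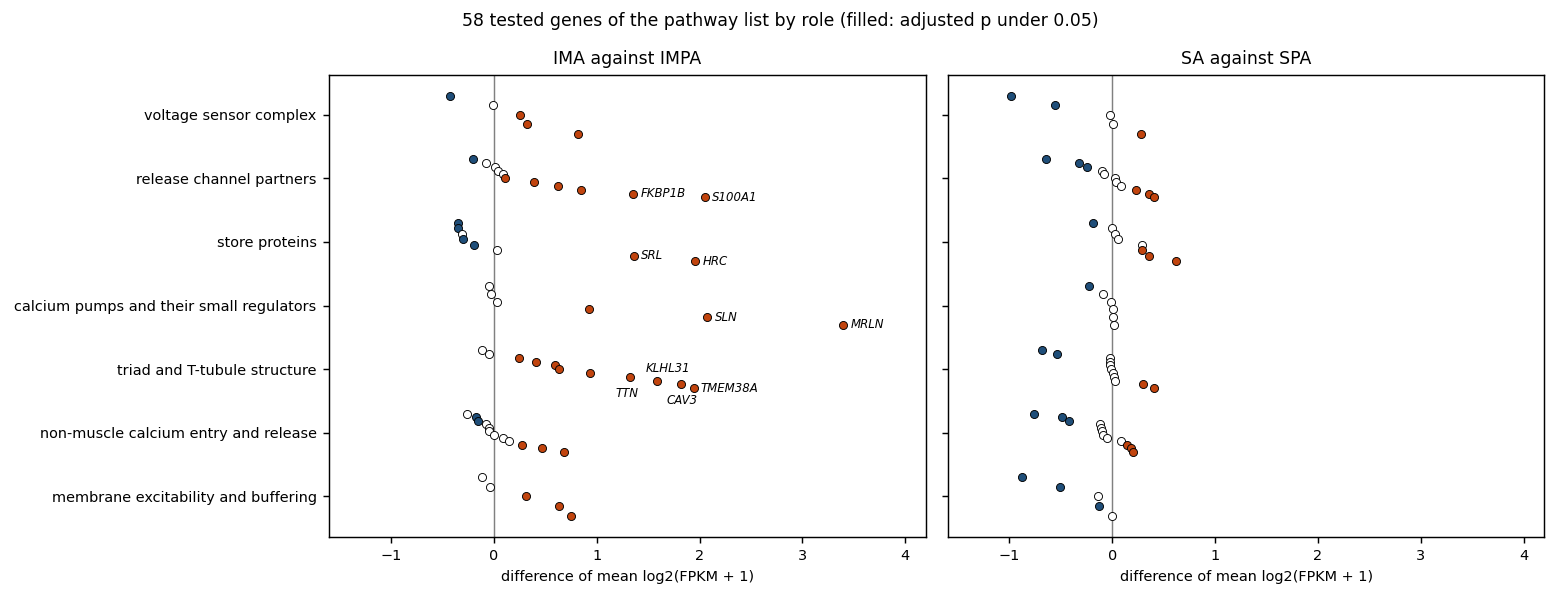
Difference of mean log2(FPKM + 1) of the 58 tested pathway genes in IMA against IMPA (left) and SA against SPA (right), by role (vertical axis), with 1 point per gene, filled where the adjusted p was under 0.05 (red higher, blue lower). In the left panel the named genes reach from 1.32 for TTN to 3.40 for MRLN, and no gene of the right panel is above 0.62.

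Other cell types were checked in the same libraries. Of all genes, 19.9% were called higher and 40.2% lower in IMA against IMPA, and 26.1% and 26.0% in SA against SPA. Summed cardiac markers were 5.15 to 6.76 FPKM in IMPA and 9.99 to 18.6 FPKM in IMA, and 1 of 1 tested, TNNI3, rose. TNNI3 made up nearly all of this sum, with group means of 5.97 and 14.1 FPKM. MYBPC3 had group means of at most 0.163 FPKM, and NKX2-5, NPPA, NPPB and MYL7 of at most 0.0261 FPKM. Smooth muscle markers summed to 798.4 to 1003 FPKM and 679.8 to 857.1 FPKM, with 2 rises and 3 falls of 5. The adipocyte list gave 1 rise and 1 fall of 4 tested. Preadipocyte and fibroblast markers gave 1 rise and 2 falls of 9. Of the 6 immune markers 2 were tested, CD68 and CD14, and both rose. PTPRC, CSF1R, CD3E and CD79A were under the filter, with group means of at most 0.224 FPKM, and PTPRC was listed at 0 in all 5 IMA libraries. The neural list gave 1 rise of 1, S100B, which made up nearly all of its sum. Endothelial markers summed to at most 1.19 FPKM in any library, and none was tested. Proliferation markers gave 0 rises and 5 falls of 7 in the intramuscular cells, and 7 rises of 7 in the subcutaneous cells, where their sum went from between 55.6 and 63.8 FPKM to between 250.3 and 284.3 FPKM. The part of these cell types and of cell division in the results was not tested.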

How the data were processed

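RNA of 20 libraries of cultured goat cells was sequenced. The authors aligned reads to the goat genome (ARS1) and deposited FPKM values per transcript. The submitters' processing notes name HISAT2 2.0.4, StringTie 1.3.1 and GATK 2.6-5, and the study's methods also name Ballgown. No counts were used here. The mRNA table gave the genes, and the lncRNA tables only entered the FPKM sums per library.

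Transcripts were summed per gene symbol, and genes averaging 1 FPKM or more across the 20 libraries were tested on log2(FPKM + 1) with limma 3.58.1 (variance trend) in R 4.3.3, 10 libraries per comparison, and 20 for the interaction. A fold change on this scale understates the change of low genes. Adjustment (Benjamini-Hochberg) was over 11432 genes. For single values, two-sided exact permutation tests over libraries were run in Python 3.11.15 with scipy 1.17.1 (numpy 2.4.6, pandas 2.3.3, matplotlib 3.10.9). The steps were tested on simulated data. Groups follow the labels, which give replicate numbers but not what a number stands for. Libraries were therefore not paired, and p values measure the spread between libraries.

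Members and gene lists were chosen with earlier results of these data known. Named were all members, the up to 8 pathway genes that changed most in each direction of both stage comparisons, RYR2, ATP2A3, PLN, SLN, ITPR1, ITPR2, ITPR3, CACNA1C and JPH2, member transcripts that averaged 1 FPKM or more in a group, and for RYR1, ATP2A1 and ATP2A2 the 3 genes with the nearest pattern. Marker genes and others singled out were named after their values were seen. The pathway genes SELENON, DWORF and ERLN and the markers MYMK, MYMX, MYH3, MYH6, FABP4 and TUBB3 were not found by symbol and were not analysed here, and some genes of the pathway list are not reported here by name. Alternatives were other filters and pseudocounts, upper-quartile scaling, the ordinary linear model with the Ballgown covariate, no variance trend, all groups in 1 fit, an unadjusted threshold, the most abundant transcript, a replicate block, and leaving out each library, or SPA1 and SA5 together.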

Additional observations from a re-analysis of the deposited data

Results flagged for a closer look

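In 5 of the 40 sets of 5 libraries (10 genes in 4 groups), a single library stood far from the other 4. Chance gives about 1 in 20 only where values are spread normally, which values near 0 are not. All 5 were SA libraries at low values. Where 4 libraries are at 0, any value above 0 in the other is flagged, so the count is given as a description only. RYR1 was listed at 0 in SA1, while the other SA libraries had 0.00678 to 0.00860 FPKM. RYR3 was at 0.0200 FPKM in SA3, TRDN at 0.0141 FPKM in SA5, where it was listed at 0 in the rest, and ATP2A1 at 0.108 FPKM in SA5. CASQ1 was at 0.937 FPKM in SA4, above the 0.432 to 0.483 FPKM of the other SA libraries.

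The change with induction differed between the cell types for each of the 9 tested members, by the interaction test in limma over the 20 libraries. Of these, 6 (CACNA1S, STAC3, RYR1, TRDN, CASQ1 and ATP2A1) were under 1 FPKM over the subcutaneous libraries and had little room to change there, so their values mostly restate the intramuscular change. The intramuscular minus subcutaneous difference on the log2(FPKM + 1) scale was 0.72 for CACNA1S, 1.37 for CACNB1, 1.47 for STAC3, 0.51 for RYR1, 2.28 for TRDN, 2.42 for CASQ1, 2.21 for CASQ2, 1.56 for ATP2A1 and 1.07 for ATP2A2. Of all genes, 55.3% were called in this test in either direction. The muscle markers differed in the same way for 11 of 14 genes, and their part was not tested.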

How the results depend on the processing

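No log2 difference of a member that was called in the main analysis turned its sign under any alternative, and of the 1012 values recomputed 1002 kept their side of the threshold. The count of members called in SA against SPA, 1 in the main analysis, was 2 at an unadjusted p under 0.05, 2 with a pseudocount of 0.1 (CACNA1S added), 0 with the most abundant transcript of each gene, and 1 to 3 when 1 library was left out (2 without SPA2, 3 without SPA3, where CACNB1 and STAC3 were added, and 2 without SA5). It was 1 without SPA1 and SA5 together. In the other comparisons and the interaction, 9 members were called whichever library was left out. The most abundant transcript also ended the call of TRDN and ATP2A1 in IMPA against SPA (adjusted p = 0.390 and 0.224) and gave ATP2A1 a log2 difference of 4.14 between IMA and IMPA in place of 1.58, since other models carry these genes before induction. Pathway genes called ranged from 33 to 38 in IMA against IMPA and from 26 to 28 in SA against SPA when a library was left out. The 5 shares and 4 of the 5 ratios recomputed without each library, an alternative added after the data were seen, had a p of 0.0159 each time, the smallest that 4 against 5 libraries allow.

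The replicate number as a block left 9 members called in IMA against IMPA, 1 in SA against SPA and 9 in the interaction, and 36 pathway genes in IMA against IMPA. Correlations of the deviations of libraries with the same number ran from 0.0417 to 0.121 between IMA and IMPA, where 3 of 5 libraries matched their own number best, and from -0.242 to 0.122 between SA and SPA, where 1 of 5 did. Whether the numbers mark the same goats is unknown, and libraries were treated as unpaired. FPKM without counts, and levels near 0 in the subcutaneous cells, limit what could be measured there.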

Other observations

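The tested genes whose 4 group means were nearest in pattern to those of a member were looked up, by the root mean square distance between centred log2(FPKM + 1) group means. Nearest to RYR1 were LPAR1, a lysophosphatidic acid receptor, at a distance of 0.0515, AQP1, a water channel, at 0.0609, and NANOS1, an RNA-binding protein, at 0.0623. Nearest to ATP2A1 were PADI2, a peptidylarginine deiminase, at 0.0835, the member STAC3 at 0.0854, and C28H10orf10 at 0.0863. PADI2 had 9.39 FPKM in IMPA, 30.3 FPKM in IMA, 0.0310 FPKM in SPA and 0.0395 FPKM in SA as means taken on the log scale. Nearest to ATP2A2 were LAPTM4B, a lysosomal membrane protein, at 0.0729, PLXNC1, a semaphorin receptor, at 0.0780, and PROB1 at 0.0798. The distances rest on 4 group means, so many genes can lie close, and nothing was tested on them.

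Some other genes of calcium handling, chosen after their values were seen, were not described above. MCU, the pore of the mitochondrial calcium uniporter, rose from 21.2 FPKM ± 1.3 (SD, n = 5) in IMPA to 29.8 FPKM ± 0.9 (SD, n = 5) in IMA (limma, adjusted p = 3.50e-06) and had 11.2 and 10.4 FPKM in SPA and SA, where the difference did not pass. JSRP1, a triad protein known as JP-45, had 24.1 FPKM ± 2.4 (SD, n = 5) in IMPA and 22.2 FPKM ± 2.1 (SD, n = 5) in IMA, and this difference did not pass (limma, adjusted p = 0.217), unlike the members. SLC8A3, a sodium-calcium exchanger under the filter, had 0.479 FPKM ± 0.040 (SD, n = 5) in IMPA and 3.24 FPKM ± 0.48 (SD, n = 5) in IMA, without overlap.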
